A study of Schizosaccharomyces pombe with 2 samples.

Results

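The genes described here encode the enzymes that carry sugar through glycolysis, alcoholic fermentation, the pentose phosphate pathway, the pyruvate dehydrogenase complex and the citric acid cycle of the fission yeast *Schizosaccharomyces pombe*, with a few enzymes of gluconeogenesis, malate use and disaccharide use. The list held 41 genes, chosen by name, and a gene was taken as measured when the platform annotation gave its exact symbol as the sole name of a probe set. This held for 29 of the 41 genes, through 31 of the 4999 unmasked probe sets that are not controls, and for 2899 genes in the whole series. All 29 reached a signal of 100 on at least 1 array, as did 2796 of the 2899. The other 12 genes had no probe set of their own name. The annotation leaves 2062 unmasked probe sets that are not controls without any name, and whether some of them detect these genes was not examined. Of these, *tdh1* and *gpd3* are described only through a probe set they share and through controls, and the rest were not analysed here, namely *pdc101*, *pdc102*, *pdc201*, *pdc202*, *gnd1*, *rki1*, *aco1*, *kgd1*, *mdh1* and *agl1*.

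Poly(A)-containing RNA of *sgo2*Δ cells (strain JP2247, *sgo2* deleted, *h*-) and of wt cells (strain JK107, *h*-) was compared, with 1 array per strain. The strains share the mating type, the rich YES medium, growth at 32 °C and exponential phase. Sgo2 is a shugoshin, a protein of centromeres that in interphase also binds the chromosome regions next to the telomeres. The comparison asks whether transcript levels of central carbon metabolism differ when this protein is missing.

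In glycolysis, glucose is phosphorylated, split into triose phosphates and oxidized to pyruvate. Fission yeast growing on abundant glucose decarboxylates most of the pyruvate to acetaldehyde and reduces it to ethanol, while the pyruvate dehydrogenase complex and the citric acid cycle in mitochondria oxidize pyruvate further and supply precursors for amino acids. The oxidative branch of the pentose phosphate pathway yields NADPH. Genes such as *fbp1*, for the gluconeogenic enzyme fructose-1,6-bisphosphatase, and *inv1*, for invertase, are known for repression by glucose.

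The values are array signals on a linear scale, and a log2 ratio is log2 of the *sgo2*Δ signal over the wt signal. The *sgo2* gene itself had a signal of 2.81 in *sgo2*Δ and 581.5 in wt, lower by at least 5.82-fold when the *sgo2*Δ signal is set to 100. The tag controls, for which the samples hold no target, went up to 43.9 in *sgo2*Δ and 47.7 in wt. The 2796 genes had a median log2 ratio of 0.13, and 428 of them lay below 0. This shift was not even over the signal range, with a median of 0.16 at signals of 2000 to 4000 and 0.023 at 8000 or more. Ratios below are those of the deposited signals and include the shift unless they are called centred, which means that 0.13 was subtracted. Median log2 ratios were 0.54 over 6 controls for ribosomal RNA (18S and 28S) and 0.51 over 12 for added poly(A) transcripts, whereas the 9 hybridization controls had 0.10 and the 3 for *act1* 0.029, and their part in the results below was not tested. Each strain is represented by 1 array, so differences could not be checked in replicates, p-values are not given, and precision is limited by the number of arrays.

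None of the 29 genes differed by 2-fold. The count at 2-fold or more was 0 for genes higher in *sgo2*Δ, against 0.536% of the 2796 genes, and 0 for lower genes, against 0.0358%. The latter share is 1 gene, the deleted *sgo2* itself. At 1.5-fold the count in either direction was again 0, against 1.11%. The log2 ratios of the 29 genes ran from -0.18 (*mae1*) to 0.26 (*mal1*), with a median of 0.013. A finer measure was the range that holds the central 95% of log2 ratios of the 200 genes of nearest signal, which is narrow for bright probe sets and wide for dim ones. By this measure too, 0 of the 29 genes lay outside their range, against 5.79% of the 2796 genes. This range describes the spread between genes on these arrays and does not cover variation between cultures.

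**Figure D1:**
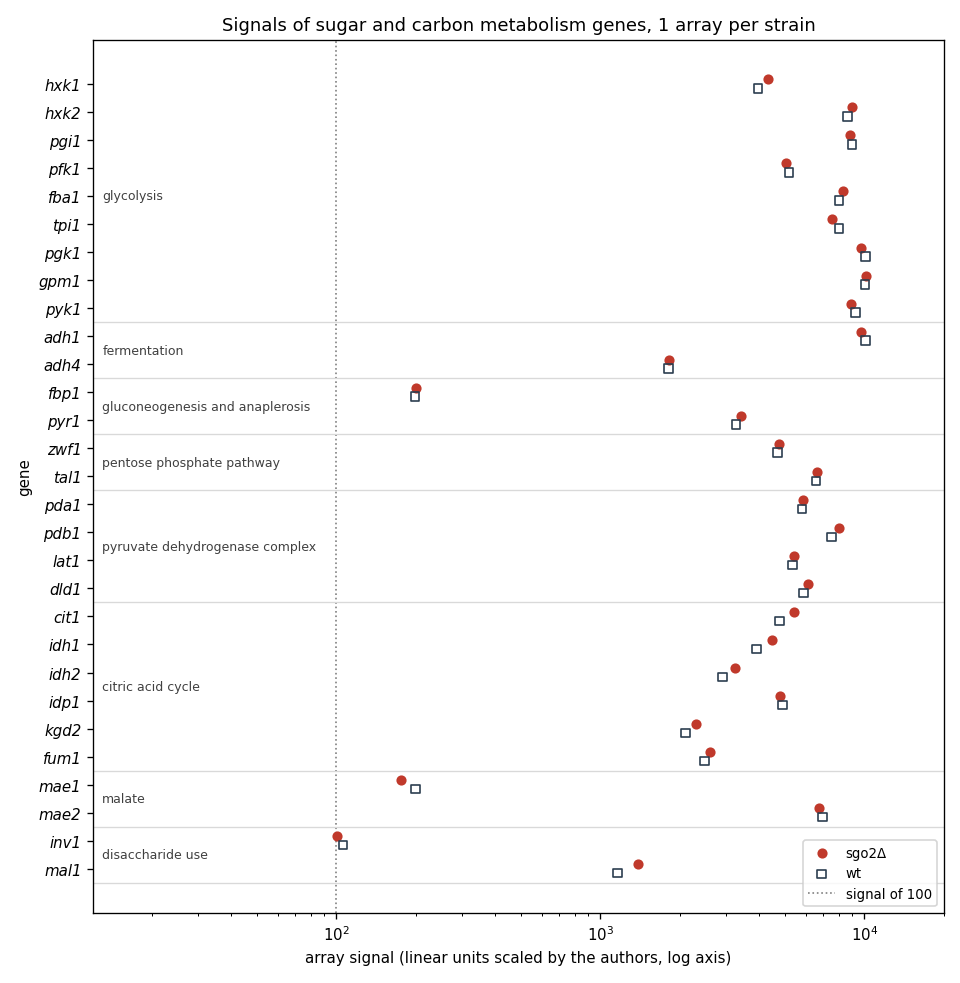
Signals of the 29 measured genes on a log axis, grouped by pathway, with filled circles for *sgo2*Δ and open squares for wt (1 array each). The pair of marks lies close together for every gene, and only *fbp1*, *mae1* (the mean of 3 probe sets) and *inv1* lie under a signal of 500.

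Glycolysis was followed through 9 of its 11 listed genes, and none of them lay above the median of all genes. The hexokinase gene *hxk1* had a signal of 4301 in *sgo2*Δ and 3952 in wt (log2 ratio 0.12). The second hexokinase gene, *hxk2*, had 9001 in *sgo2*Δ and 8637 in wt (0.060). Both enzymes phosphorylate hexoses at the entry of the pathway, and their log2 ratios differed by -0.062 (*hxk2* minus *hxk1*), less in size than the spread of such a difference among genes of like signal (0.094). In this spread and those below, the spreads of the 2 genes, taken from the central 68% of their 200 nearest genes, are combined as the root of the summed squares. With the ratios set against genes of like signal the difference was 0.027, and with quantile normalization 0.045, so its sign depends on the scaling.

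The glucose-6-phosphate isomerase gene *pgi1* had 8813 in *sgo2*Δ and 8979 in wt (-0.027). The gene of phosphofructokinase, *pfk1*, which commits hexose to glycolysis, had 5034 in *sgo2*Δ and 5173 in wt (-0.039). This value lay near the lower edge of the range of genes of like signal (-0.054 to 0.26). The aldolase gene *fba1* had 8269 in *sgo2*Δ and 8015 in wt (0.045). The triose phosphate isomerase gene *tpi1* had 7548 in *sgo2*Δ and 8032 in wt. Its log2 ratio of -0.090 was the lowest of the glycolysis genes and lay just inside its range, whose lower edge was -0.091. With the range taken from 100 genes, or with quantile normalization, *tpi1* lay outside it, and it was the only one of the 29 genes to do so under either setting.

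In the lower part of the pathway, which yields ATP, the phosphoglycerate kinase gene *pgk1* had 9717 in *sgo2*Δ and 10090.2 in wt (-0.054). The phosphoglycerate mutase gene *gpm1* had 10144 in *sgo2*Δ and 10058 in wt (0.012). The gene of pyruvate kinase, *pyk1*, the last enzyme of glycolysis, had 8925 in *sgo2*Δ and 9240.3 in wt (-0.050). These 3 genes stood near the top of the signal range, which ended at 11662 in *sgo2*Δ and 11785 in wt.

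The genes of glyceraldehyde-3-phosphate dehydrogenase, *tdh1* and *gpd3*, shared 1 probe set that names both and so could not be told apart. It had a signal of 8326 in *sgo2*Δ and 8206 in wt (log2 ratio 0.021). The array also carries 4 control probe sets labelled for *GPD3*, placed along the transcript. The one at the 5′ end had 4960.5 in *sgo2*Δ and 4982 in wt (-0.0064), and the one at the 3′ end had 9136 in *sgo2*Δ and 9470 in wt (-0.052). The middle ones had log2 ratios of 0.069 and -0.0085. Log2 ratios of this step thus lay within the same narrow band as the other steps, at the 5′ and the 3′ end alike.

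Fermentation was followed here only at its last step, since the annotation gave none of the 4 pyruvate decarboxylase genes as the sole name of a probe set. The main alcohol dehydrogenase gene *adh1*, whose product reduces acetaldehyde to ethanol, had 9754 in *sgo2*Δ and 10101 in wt (-0.050). The gene of a second alcohol dehydrogenase, *adh4*, had 1821 in *sgo2*Δ and 1813 in wt (0.0062). The difference between them was 0.057 (*adh4* minus *adh1*; spread 0.12). It turned to -0.080 once each ratio was set against genes of like signal, and to -0.096 with quantile normalization, so no order of the pair can be read from these arrays.

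Gluconeogenesis and the refilling of the citric acid cycle were represented by *fbp1* and *pyr1*. The glucose-repressed *fbp1* was dim on both arrays, with 200.4 in *sgo2*Δ and 198.5 in wt (0.014), within a range of -0.37 to 0.65 for genes of like signal. The pyruvate carboxylase gene *pyr1*, which makes oxaloacetate from pyruvate, had 3419.5 in *sgo2*Δ and 3260.1 in wt (0.069). Set against the glycolytic enzyme of the opposite step, *fbp1* exceeded *pfk1* by 0.053 (spread 0.26). With quantile normalization this difference was -0.13, the opposite direction. The ratio of *pyr1*, whose enzyme uses the pyruvate that pyruvate kinase makes, exceeded that of *pyk1* by 0.12 (spread 0.11). The difference between *pyr1* and *pyk1* was 0.0052 against genes of like signal and -0.028 with quantile normalization.

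For the pentose phosphate pathway 2 of 4 genes were measured, and their ratios were nearly the same. The glucose-6-phosphate dehydrogenase gene *zwf1*, for the first, NADPH-yielding step, had 4736 in *sgo2*Δ and 4696 in wt (0.012). The transaldolase gene *tal1*, of the branch that returns carbon to glycolysis, had 6607 in *sgo2*Δ and 6549 in wt (0.013).

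All 4 listed genes of the pyruvate dehydrogenase complex, the link between glycolysis and the citric acid cycle, were measured. The E1 alpha subunit gene *pda1* had 5858 in *sgo2*Δ and 5819 in wt (0.0096). The E1 beta subunit gene *pdb1* had 8038 in *sgo2*Δ and 7511 in wt (0.098). The gene of the acetyltransferase E2, *lat1*, had 5406 in *sgo2*Δ and 5355 in wt (0.014). The gene of dihydrolipoamide dehydrogenase E3, *dld1*, which also serves the 2-oxoglutarate dehydrogenase complex, had 6126 in *sgo2*Δ and 5879.6 in wt (0.059). The ratios of the E1 subunits differed by -0.088 (*pda1* minus *pdb1*), less than their spread of 0.10, and those of *pda1* and *lat1* by -0.0040, or 0.0096 with quantile normalization.

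The citric acid cycle had the highest ratios of any pathway with over 2 measured genes, although none reached 1.5-fold. The citrate synthase gene *cit1*, for the entry of acetyl-CoA, had 5394 in *sgo2*Δ and 4771 in wt, 13.1% higher (log2 ratio 0.18). The genes of the NAD-dependent isocitrate dehydrogenase followed it closely. Its subunit gene *idh1* had 4472 in *sgo2*Δ and 3909 in wt, 14.4% higher (0.19), and *idh2* had 3233 in *sgo2*Δ and 2901 in wt, 11.4% higher (0.16). The subunits of this one enzyme thus differed by 0.038, within a spread of 0.12. Much of each value was the shift of all genes, and the centred log2 ratios were 0.049 for *cit1*, 0.066 for *idh1* and 0.028 for *idh2*. Against genes of like signal *idh2* had 0.0016, and with quantile normalization -0.025.

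The NADP-dependent isocitrate dehydrogenase gene *idp1* had a lower ratio, with 4813 in *sgo2*Δ and 4894.5 in wt (-0.024, or -0.15 centred). With quantile normalization *idp1* (-0.15) and *idh2* (-0.025) had the same sign. The difference was 0.22 for *idh1* minus *idp1* (spread 0.11) and 0.18 for *idh2* minus *idp1* (spread 0.12). Against genes of like signal, the differences from *idp1* were 0.22 for *idh1* and 0.15 for *idh2*. Of the 12 pairs of genes compared, 4 differed by more than their spread. The spread rests on the central 68% of genes and leaves the others outside by construction, so nothing is read from this count. Each is a difference between 1 array and another, with no replicate behind it.

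Further along the cycle, *kgd2*, for the E2 component of 2-oxoglutarate dehydrogenase, had 2311 in *sgo2*Δ and 2101 in wt (0.14). The fumarase gene *fum1* had 2605 in *sgo2*Δ and 2481 in wt (0.070). The genes of aconitase, of the E1 component of 2-oxoglutarate dehydrogenase and of malate dehydrogenase (*aco1*, *kgd1*, *mdh1*) were among those without a probe set of their own name.

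Of the malate genes, *mae2*, for malic enzyme, which converts malate to pyruvate, had 6724 in *sgo2*Δ and 6943 in wt (-0.046). The malate permease gene *mae1* was covered by 3 probe sets that disagreed in brightness. The brightest had 6029 in *sgo2*Δ and 6155 in wt (-0.030), whereas the others stayed under 100 on both arrays (46.5 in *sgo2*Δ and 53.6 in wt, and 19.5 in *sgo2*Δ and 24.2 in wt). The mean log2 ratio of -0.18 given for *mae1* therefore rests mainly on probe sets close to the level of the controls without a target.

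The largest ratio of the 29 genes was that of *mal1*, an alpha-glucosidase gene for maltose use, which had 1394 in *sgo2*Δ and 1160.2 in wt, 20.2% higher (log2 ratio 0.26, centred 0.14, range of genes of like signal -0.12 to 0.36). Of the 2796 genes, 86.8% had a lower ratio. The invertase gene *inv1*, which serves sucrose use and is repressed by glucose, had 101 in *sgo2*Δ and 106.1 in wt (-0.071), barely above the signal of 100 on either array. The difference of 0.34 between them stood beside a spread of 0.29.

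**Figure D2:**
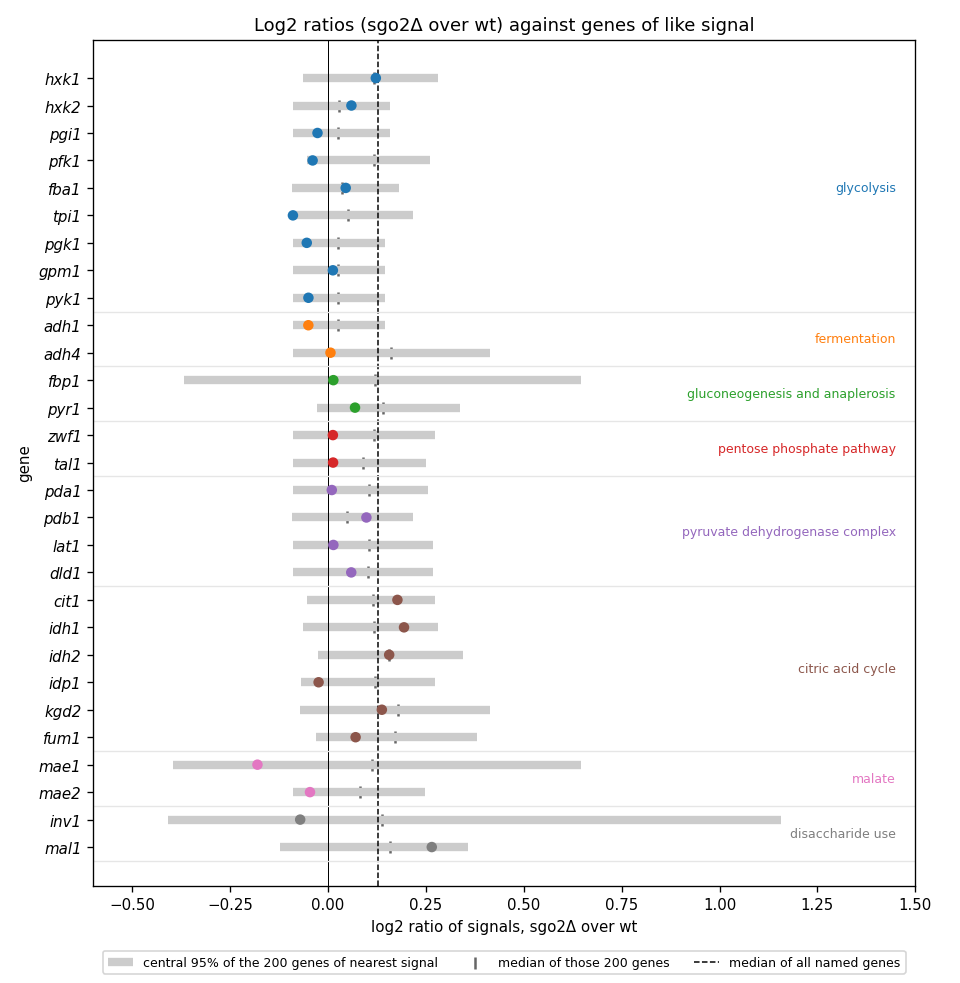
Log2 ratios of the 29 genes (*sgo2*Δ over wt, coloured points), with grey bars for the central 95% of the 200 genes of nearest signal, ticks for the median of those genes and a dashed line for the median of all named genes (0.13). Every point lies on its bar, *tpi1* (-0.090) at the lower edge, and *cit1*, *idh1*, *idh2*, *kgd2* and *mal1* are the 5 points to the right of the dashed line.

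Seen by pathway, the median log2 ratio was -0.027 for the 9 glycolysis genes, -0.022 for 2 fermentation genes, 0.041 for *fbp1* and *pyr1*, 0.013 for 2 pentose phosphate genes, 0.036 for 4 genes of the pyruvate dehydrogenase complex, 0.15 for 6 citric acid cycle genes, -0.11 for the malate genes *mae1* and *mae2* and 0.097 for *inv1* and *mal1*, against 0.13 for all 2796 genes. Relative to that median, 5 of the 29 genes lay above and 24 below. All 9 glycolysis genes lay below it, and 4 of 6 citric acid cycle genes lay above. Around 0 the split was 19 above and 10 below with the deposited signals, but 5 above and 24 below after centring on all genes and 6 above and 23 below with quantile normalization, so the sign of many of these small ratios depends on the scaling.

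The ratios also ran with the brightness of the probe sets. Among genes outside the list, log2 ratios had a median of 0.024 over the 146 with a mean signal of at least 8000 and of 0.14 over the other 2621. Of the 29 genes, 7 belonged to the first class (*hxk2*, *pgi1*, *fba1*, *pgk1*, *gpm1*, *pyk1* and *adh1*), 6 of them glycolytic and 0 of the citric acid cycle. With each ratio set against the 200 genes of nearest signal, the glycolysis median was -0.054 and the citric acid cycle median -0.020. The difference of 0.17 between these pathways (citric acid cycle minus glycolysis) was then 0.034, and it was 0.026 with quantile normalization. Of the 29 genes, 8 lay above the median of their like-signal genes and 21 below, with a median of -0.077, against -0.00016 for all genes.

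**Figure D3:**
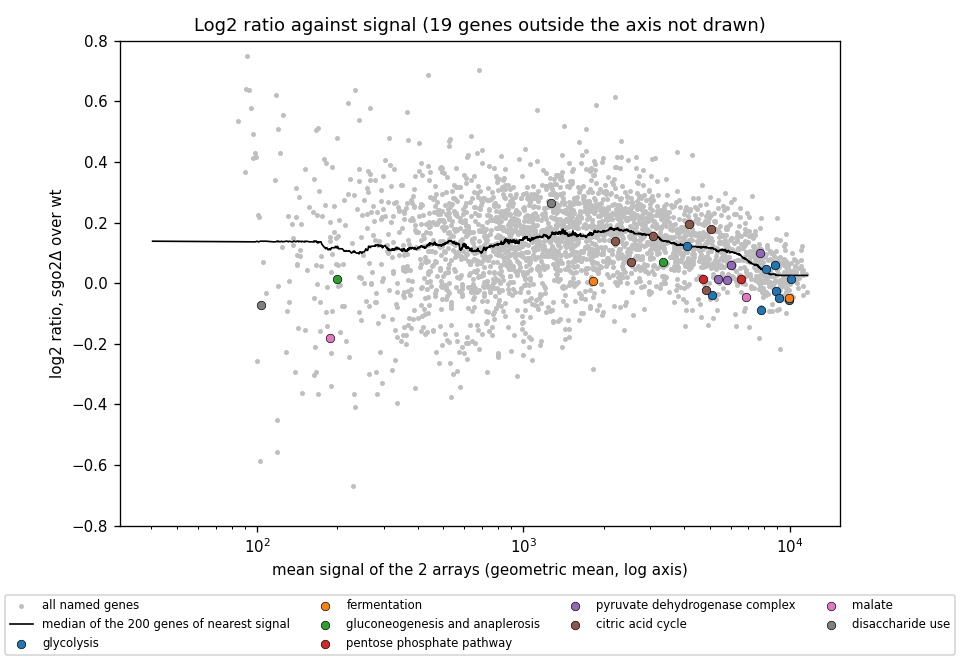
Log2 ratio (*sgo2*Δ over wt) against the mean signal of the arrays on a log axis, with grey points for all named genes, coloured points for the 29 genes by pathway and a line for the median of the 200 genes of nearest signal; 19 genes beyond 0.8 in size are not drawn. The line bends down at high signal, where most glycolysis genes lie (6 of 9 at 8000 or more), and the 6 citric acid cycle genes all lie below 8000.

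**Figure D4:**
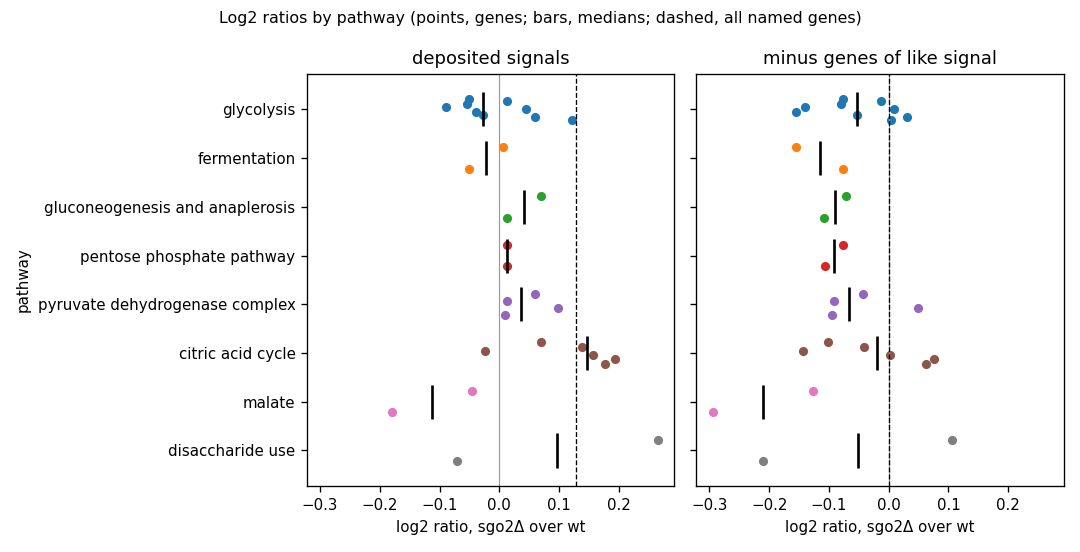
Log2 ratios by pathway (points, genes; black bars, medians; dashed lines, all named genes), from the deposited signals on the left and after subtracting the median of the 200 genes of nearest signal on the right. The medians of glycolysis and the citric acid cycle, 0.17 apart on the left, are 0.034 apart on the right.

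Because the study concerns genes near chromosome ends, the place of each gene in the order of protein-coding genes of the assembly ASM294v3 was also looked up. The array annotation names no assembly, so only gene order is given. Of the 41 genes, 4 lay among the 60 outermost genes of a chromosome end, *pdc102* (9th from the right end of chromosome I), *pdc101* (34th from its left end), *mal1* (45th from the left end of chromosome II) and *adh4* (59th from the left end of chromosome I). The pyruvate decarboxylase genes of this group had no probe set of their own name. Neighbours were sought only among measured genes, so genes without a probe set of their own name are passed over here and below. The measured gene nearest to *pdc102* was *mel1*, an alpha-galactosidase gene 15 genes further in, with 834.2 in *sgo2*Δ and 40.8 in wt. After it came *pcm2* (log2 ratio 2.88) and *put4* (0.26), 16 and 18 genes further in than *pdc102*. Next to *pdc101*, *pfl8* had a log2 ratio of -0.033. Further out, *str3*, 4 genes away, had 141.6 in *sgo2*Δ and 64.9 in wt. The hexose transporter gene *ght3*, 6 genes away, had 541.9 in *sgo2*Δ and 85.4 in wt. On the inner side, *mfs2*, 7 genes away, had a log2 ratio of 0.22.

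The gene *mal1* lay 45th from the left end of chromosome II. Among the outermost 40 genes there, 8 were measured, and 5 of them had signals at least 2-fold higher in *sgo2*Δ (median log2 ratio 1.67), the enolase gene *eno102*, 19th from the end, being the highest (3.46). Of the 19 measured genes from the 41st to the 80th, 0 were (median 0.096). On the outer side of *mal1* the nearest measured gene was *mug14*, 7 genes away, with 554.7 in *sgo2*Δ and 344.8 in wt (0.69). On its inner side lay the hexose transporter gene *ght4*, its immediate neighbour, with 643.6 in *sgo2*Δ and 527.3 in wt (0.29), and then *frp1* (0.17). The value of *mal1* (0.26) was like that of its direct neighbour, but both lay inside the range of genes of like signal. The median of the genes of like signal was already 0.16 for *mal1*. The gene *fbp1*, 65th from the same end, had 0.014, and *adh4* on chromosome I had 0.0062. The measured genes nearest to *adh4* were *mfs2* (0.22), 18 genes further out, and *pan6* (0.23), 2 genes further in. The boundary at 40 genes was chosen after the values were seen.

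**Figure D5:**
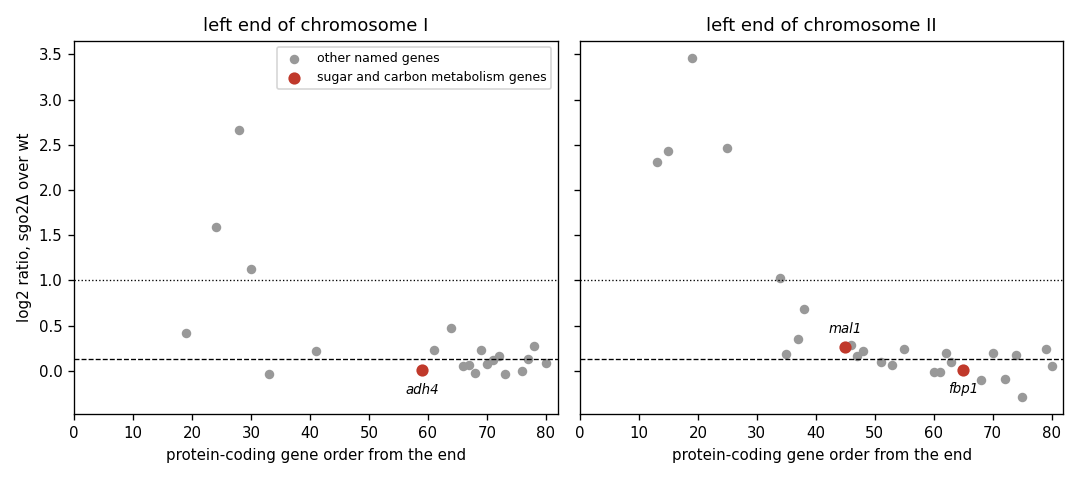
Log2 ratio (*sgo2*Δ over wt) of measured genes by their order from the left ends of chromosomes I and II, with red points for *adh4*, *mal1* and *fbp1* and grey points for other named genes; the dotted line marks 2-fold and the dashed line the median of all named genes. Points over the dotted line lie within the outermost 40 genes, and the red points lie further in, at 0.0062 (*adh4*), 0.26 (*mal1*) and 0.014 (*fbp1*).

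Enzymes of the same pathways that were not on the list gave a setting for these values. Of 16 such genes fixed by name, 7 were measured, 1 was higher by 2-fold or more and 0 lower, with a median of 0.090. The exception was *eno102*, whose enolase acts between *gpm1* and *pyk1* in glycolysis, at 5151 in *sgo2*Δ and 466.7 in wt, 11.0-fold higher. Its isozyme gene *eno101*, far from chromosome ends, had 8465 in *sgo2*Δ and 8327 in wt (0.024), a ratio like those of its glycolytic partners. Of the succinate dehydrogenase genes, *sdh1*, *sdh2* and *sdh3*, which complete the citric acid cycle, had log2 ratios of 0.073, 0.22 and 0.072, and *osm1*, a fumarate reductase gene, 0.23. Of 11 genes of glycerol and acetate metabolism, 7 were measured (median 0.0040), and *dak2*, a dihydroxyacetone kinase gene 24th from the left end of chromosome I, had 2332 in *sgo2*Δ and 776.9 in wt (log2 ratio 1.59). The next in size was the aldehyde dehydrogenase gene *atd3* (0.34, with 270.8 in *sgo2*Δ and 214.3 in wt). The glycerol-3-phosphate dehydrogenase gene *gut2* lay just below its range, at 2134 in *sgo2*Δ and 2249 in wt (-0.076, lower edge -0.071).

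All 14 genes of a list of regulators of glucose repression and of CCAAT-box factors were measured (median log2 ratio 0.11), and none differed by 1.5-fold. Below the range of genes of like signal lay 3 of the 14, against 2.79% of all genes, and 0 lay above it. The corepressor gene *tup12* had 846.8 in *sgo2*Δ and 1046 in wt (log2 ratio -0.31, range -0.15 to 0.32). The gene of the catalytic subunit of protein kinase A, *pka1*, which conveys the glucose signal that represses *fbp1*, had 738.2 in *sgo2*Δ and 870.5 in wt (-0.24, range -0.15 to 0.35). The bZIP factor gene *pcr1*, whose product activates *fbp1* together with Atf1, had 918.1 in *sgo2*Δ and 1082 in wt (-0.24, range -0.18 to 0.32). Its partner *atf1* had 612.4 in *sgo2*Δ and 702.9 in wt (-0.20), inside its range, and below it with the range taken from 100 genes. The highest ratio of the 14 was that of *tup11*, with 2132 in *sgo2*Δ and 1814 in wt (0.23, inside its range). Relative to 0, 10 of the 14 lay above and 4 below, and relative to the median of all genes 5 and 9. The glucose repressor gene *scr1* and the activator gene *rst2* had log2 ratios of 0.17 and 0.18. The *fbp1* transcript, which these factors control, stood at 200.4 in *sgo2*Δ and 198.5 in wt.

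Lists of genes of other states of the cell were checked beside these values. Of 7 measured genes of stationary phase and stress, 0 differed by 1.5-fold (median 0.026), with *isp6* (0.15) and *hsp16* (0.15) largest in size and *ish1* (-0.12) below its range. Of 4 measured meiosis genes, 0 did (median 0.24), the largest being the dim *mei2* (113.8 in *sgo2*Δ and 85.4 in wt) and *ste11* (590.9 in *sgo2*Δ and 493.6 in wt), while *dmc1* was lower (118.8 in *sgo2*Δ and 139 in wt). The 3 mating-type genes of a further list (median 0.30) were dim, the brightest, *mam2*, at 288.3 in *sgo2*Δ and 233.9 in wt. Only *map1* and *map2* of these are genes of the plus mating type. These 2, the largest in size, ran in opposite directions, *map1* at 0.75 (118.5 in *sgo2*Δ and 70.6 in wt) and *map2* at -0.59 (83.6 in *sgo2*Δ and 125.7 in wt). Both passed 1.5-fold, against 1.11% of all genes, and *map2* lay below its range (lower edge -0.37). Each was under 100 on 1 of the arrays. Their part in the values of the metabolic genes was not tested.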

How the data were processed

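From 0.3 μg of poly(A)-containing RNA per strain the authors prepared labelled cRNA for Affymetrix yeast arrays. Scanning, scaling and comparison were done by them in GCOS 1.4 under its defaults, with *S. cerevisiae* probe sets masked. The authors deposited linear signal intensities. Masked probe sets (5748 of 10928) are listed at 0, so the column medians are 0 on both arrays, and the scaling target is not given in the sources used here. Over the other probe sets that are not controls the median signal was 1477 in *sgo2*Δ and 1309 in wt, and 4.66% and 5.58% lay under 100. GCOS change calls were not used.

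Gene names came from the platform's annotation. Of those with a signal, 2917 named 1 gene, 20 several and 2062 none. Symbols other than those of the list were updated by gene identifier to ASM294v3, except for 3 identifiers without a match. The log2 signals of a gene with more than 1 probe set were averaged. A gene was counted as measured where the brighter array reached 100 and called higher or lower at 2-fold or 1.5-fold.

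Every listed gene with a probe set was named, with the 2 largest in size of each further list. *pcr1*, *atf1*, *tup11*, *scr1*, *rst2*, *eno101*, *gut2*, *ish1*, *mam2*, *dmc1*, the *sdh* genes, the *GPD3* controls and the genes near chromosome ends were picked with their values in view. The genes, lists and alternatives were chosen with earlier results of these data known. Alternatives were centring, subtraction of genes of like signal, quantile normalization, a pseudocount of 100, floors of 50, 200 and none, the brightest probe set, and 100 or 400 nearest genes. The calling was run on simulated data that had the same spread at every signal, unlike these arrays. That run therefore does not check how the like-signal range follows brightness. Scripts ran under Python 3.11.15. Figures were drawn with matplotlib 3.10.9, and tables were computed with pandas 2.3.3 and numpy 2.4.6.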

Additional observations from a re-analysis of the deposited data

How the results depend on the processing

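No paired analysis was possible because the labels give a single array for every strain, which also leaves no replicate to omit. Low signal over background limits *inv1*, *fbp1* and the dim probe sets of *mae1*. Under each alternative run, the counts of the 29 genes at 2-fold and 1.5-fold stayed at 0 (27 genes with a floor of 200). The count outside the range of genes of like signal was 1 (*tpi1*) with quantile normalization and with 100 nearest genes, and 0 otherwise. The count of regulators below their range was 3, or 4 with 100 nearest genes. This count was not planned and was added after seeing the data. Of 230 values of single genes under an alternative, 168 moved by less than that gene's like-signal spread and 62 by more, all of these under the 3 settings that shift or rescale ratios.

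Centring removes the shift of 0.13 by construction. With it the medians were -0.16 for glycolysis, -0.15 for fermentation, -0.087 for *fbp1* and *pyr1*, -0.12 for the pentose phosphate pathway, -0.092 for the pyruvate dehydrogenase complex, -0.24 for the malate genes, -0.12 for all 29 genes and 0 for all named genes. Against genes of like signal, fermentation had -0.12, *fbp1* and *pyr1* -0.090, the pentose phosphate pathway -0.092, the pyruvate dehydrogenase complex -0.066, the malate genes -0.21, all 29 genes -0.077 and all named genes -0.00016. The difference between citric acid cycle and glycolysis was 0.034, *adh4* minus *adh1* -0.080 and *pyr1* minus *pyk1* 0.0052. With quantile normalization, glycolysis had -0.061, fermentation -0.13, *fbp1* and *pyr1* -0.19, the pentose phosphate pathway -0.11, the pyruvate dehydrogenase complex -0.065, the citric acid cycle -0.035, the malate genes -0.26, the disaccharide genes -0.20, all 29 genes -0.083 and all named genes -0.019. The difference between citric acid cycle and glycolysis was 0.026, *hxk2* minus *hxk1* 0.045, *adh4* minus *adh1* -0.096 and *pyr1* minus *pyk1* -0.028. With a pseudocount of 100 the median of all named genes was 0.12, and with the brightest probe set that of the malate genes was -0.038, as this drops the dim probe sets of *mae1*. Otherwise the cause was not tested.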
